A study of Rattus norvegicus with 6 samples.

Results

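Mitochondrial ribosomal protein genes were followed in 6 RNA sequencing libraries of neonatal rat ventricular myocytes (NRVM), the cultured muscle cells of the newborn rat heart. Members were all listings whose symbol begins with Mrpl or Mrps followed by a digit, read in upper or lower case, which gave 71 of the 13843 listings. Of these, 43 name large-subunit proteins (Mrpl) and 28 name small-subunit proteins (Mrps). They carry 70 distinct symbols, since Mrpl1 stands on 2 rows, and 3 symbols (mrpl9, mrpl11 and mrpl24) are written in lower case. Against RefSeq's gene list for GRCr8, 70 listings matched a current symbol, and Mrps36 matched as an older symbol of Kgd4.

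The libraries form 3 groups of 2. In the PE+TSA+shJIP1 group, cells received phenylephrine (PE, an agonist of alpha-1 adrenergic receptors that is used to make cardiomyocytes grow), TSA and a short hairpin RNA against JIP1. Cells of the PE+TSA group received PE, TSA and a control hairpin, and cells of the PE group received PE and the control hairpin. Treatment lasted 3 days in every group, so PE is common to all and no group without it was analysed here. TSA, which the labels do not spell out, commonly stands for trichostatin A, an inhibitor of histone deacetylases, and JIP1 is the scaffold protein encoded by Mapk8ip1. The labels give no dose and speak of a JIP1 knockout in the series title but of a hairpin in the treatment, and they name no separate cultures or animals behind the replicates. P-values therefore measure only the spread between these libraries, which may be technical.

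Mitochondria have their own ribosome, which translates the few respiratory chain and ATP synthase subunits encoded in mitochondrial DNA. Its small subunit reads the messenger RNA and its large subunit joins the amino acids. Nearly all of its proteins are encoded in the nucleus, made in the cytosol and imported, and then assembled on ribosomal RNA made inside the organelle. Some are descended from proteins of bacterial ribosomes, while others occur only in mitochondria. Heart muscle is rich in mitochondria, and the transcription factors NRF1, GABP (an ETS factor) and YY1 are known to bind promoters of many nuclear genes for mitochondrial proteins.

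Promoter windows of 5 members are shown because these genes return in the comparisons and together hold all 3 motifs searched. Each runs from 250 bases before to 50 bases after the RefSeq start site in GRCr8, 5′ to 3′ on the gene's strand, and capitals mark motif matches on either strand. The values in the table were made on another build, so these windows give sequence only.
Mrpl27, chr10:80092095-80092394, plus strand: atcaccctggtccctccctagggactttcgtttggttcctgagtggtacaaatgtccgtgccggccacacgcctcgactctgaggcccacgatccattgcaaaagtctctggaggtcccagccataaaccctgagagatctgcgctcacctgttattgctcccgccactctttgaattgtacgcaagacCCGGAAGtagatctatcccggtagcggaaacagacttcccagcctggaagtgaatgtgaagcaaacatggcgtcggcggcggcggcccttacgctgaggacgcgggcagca
Mrpl32, chr17:55260401-55260700, plus strand: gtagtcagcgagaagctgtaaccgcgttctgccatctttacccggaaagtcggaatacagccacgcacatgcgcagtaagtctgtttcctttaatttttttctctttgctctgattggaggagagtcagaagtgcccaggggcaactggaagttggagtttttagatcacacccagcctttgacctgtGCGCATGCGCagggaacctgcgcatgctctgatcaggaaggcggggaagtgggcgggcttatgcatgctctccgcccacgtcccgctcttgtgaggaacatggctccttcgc
Mrpl46, chr1:142116981-142117280, minus strand: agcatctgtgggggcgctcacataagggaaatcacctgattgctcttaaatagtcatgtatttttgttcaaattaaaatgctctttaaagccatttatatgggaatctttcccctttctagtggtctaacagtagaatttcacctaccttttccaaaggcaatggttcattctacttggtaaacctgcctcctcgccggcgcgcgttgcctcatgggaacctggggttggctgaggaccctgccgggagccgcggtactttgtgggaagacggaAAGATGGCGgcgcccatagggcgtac
Mrpl53, chr4:117172793-117173092, plus strand: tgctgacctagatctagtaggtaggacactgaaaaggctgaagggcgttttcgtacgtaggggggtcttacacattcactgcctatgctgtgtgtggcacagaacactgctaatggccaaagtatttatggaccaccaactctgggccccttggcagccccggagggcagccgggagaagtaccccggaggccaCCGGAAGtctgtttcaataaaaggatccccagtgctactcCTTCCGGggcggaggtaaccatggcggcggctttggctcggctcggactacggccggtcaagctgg
Mrps18a, chr9:22367331-22367630, minus strand: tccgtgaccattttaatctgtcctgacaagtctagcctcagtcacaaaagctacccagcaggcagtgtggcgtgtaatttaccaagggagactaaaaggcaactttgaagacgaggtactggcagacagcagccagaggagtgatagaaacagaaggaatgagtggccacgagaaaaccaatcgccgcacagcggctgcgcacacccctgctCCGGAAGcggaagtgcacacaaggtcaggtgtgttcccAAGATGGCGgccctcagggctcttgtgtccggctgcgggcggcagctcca
Mrpl27 holds an ETS motif whose first base lies 61 bases before the start site. The capital run of Mrpl32 is a pair of overlapping NRF1 matches, 1 on each strand. Mrpl46 holds a YY1 motif just inside the transcript. Mrpl53 holds an ETS motif on each strand, and Mrps18a holds an ETS motif before the start and a YY1 motif that begins on the first transcribed base.

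Of the 71 listings, 56 (34 large and 22 small) had a promoter window. The motifs were GCGCANGCG for NRF1, CCGGAAG for ETS factors and AAGATGGCG for YY1, each searched on both strands, and none of the 3 contains another, although an ETS match can share its last bases with a YY1 match. The NRF1 motif stood in 11 member windows (19.6%), against 13.9% of the 7602 windows of all tested features. The ETS motif stood in 16 (28.6%), against 18.4%. The YY1 motif stood in 8 (14.3%), against 4.1%. At least 1 of the 3 was found in 30 windows (53.6%), against 31.5% of tested features and 19% of the 19005 protein-coding windows.

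Shares were also counted by subunit, as set by the symbol. Small-subunit windows thus include Mrps36 (Kgd4, NRF1 motif), Mrps18a (ETS and YY1 motifs) and Mrps30 (YY1 motif). The proteins of these genes have other places, as described below. In large-subunit windows the NRF1 motif occurred in 8 of 34 (23.5%) and the ETS motif in 8 (23.5%), whereas in small-subunit windows they occurred in 3 of 22 (13.6%) and 8 (36.4%). The 5 windows with 2 or more kinds of motif all belonged to genes with Mrps symbols, Mrps18a among them, whose protein sits in the large subunit. All 8 YY1 matches lay on the gene's own strand, with their first base between positions 1 and 31 of the transcript; of the 312 YY1-bearing windows among tested features, 169 (54.2%) had such a match after the start. Median GC content was 55.7% in member windows and 61.7% in those of tested features. A motif match describes letters in a window and was not read as binding, and these shares were not tested.

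**Figure D1:**
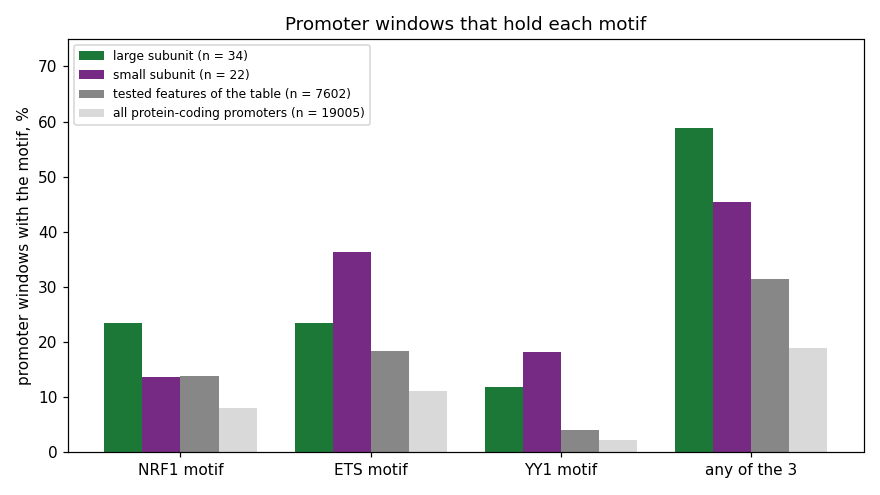
Share of promoter windows (vertical axis, %) that hold each motif, for large-subunit genes (n = 34), small-subunit genes (n = 22), tested features (n = 7602) and all protein-coding windows (n = 19005). The bars for any of the 3 motifs stand at 58.8%, 45.5%, 31.5% and 19%.

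Levels are given in FPKM, reads per unit of transcript length at a common sequencing depth, which allows levels of different genes to be compared. Mean levels of the members ranged from 0.32 to 1318 FPKM, most of them in a narrower band. Over the 6 libraries, 63 of the 71 listings averaged between 10 and 100 FPKM, with a median of 29.2 FPKM for the large subunit and 30.7 FPKM for the small subunit. The 5 listings at or above 100 FPKM were Mrpl27, Mrpl16, Mrpl53, Mrpl54 and Mrps15. Mrpl27, the homologue of a bacterial protein next to the peptidyl transferase centre, averaged 1318 FPKM, 8.29 times the next member, Mrpl16 (159 FPKM). Mrpl16 and Mrps15, also of bacterial type, and Mrpl53 and Mrpl54, both specific to mitochondria, averaged 120 to 159 FPKM. No small-subunit member averaged under 11.3 FPKM, the level of Mrps11 and Mrps27. In RefSeq, 14 of the 70 member symbols overlap another coding gene. Mrpl27 overlaps Eme1 and Mrpl16 overlaps Stx3, and Mrpl10, Mrpl22, Mrpl48, Mrpl49, Mrps2 and Mrps12 are also among the 14. These overlaps are those of GRCr8, while the values were made on another build. Reads from a stretch that overlapping genes share cannot be told apart here. The share of Mrpl27's level that this touches was not tested.

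At the low end stood Mrpl40, a protein of the central protuberance, and Mrpl1, the protein of a mobile stalk. Mrpl40 was measured at 2.60 and 0.563 FPKM in PE+TSA+shJIP1 libraries, 2.21 and 1.81 FPKM in PE+TSA libraries, and 4.15 and 1.69 FPKM in PE libraries. The second Mrpl1 listing was at 0 in both PE+TSA+shJIP1 libraries, at 3.43 and 3.52 FPKM in PE+TSA libraries, and at 3.92 and 0 FPKM in PE libraries, and it did not pass in PE+TSA+shJIP1 against PE+TSA (limma adjusted p = 0.265). The first Mrpl1 listing averaged 0.32 FPKM and, under the minimum mean of 1 FPKM, was the only member not tested, which left 42 large-subunit and 28 small-subunit members. RefSeq lists a pseudogene named after each of 22 member symbols. Mrpl1, Mrpl40 and Mrpl42 are among them, and so are the more abundant Mrpl54, Mrps21 and Mrpl15. Whether reads were split between copies was not tested.

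**Figure D2:**
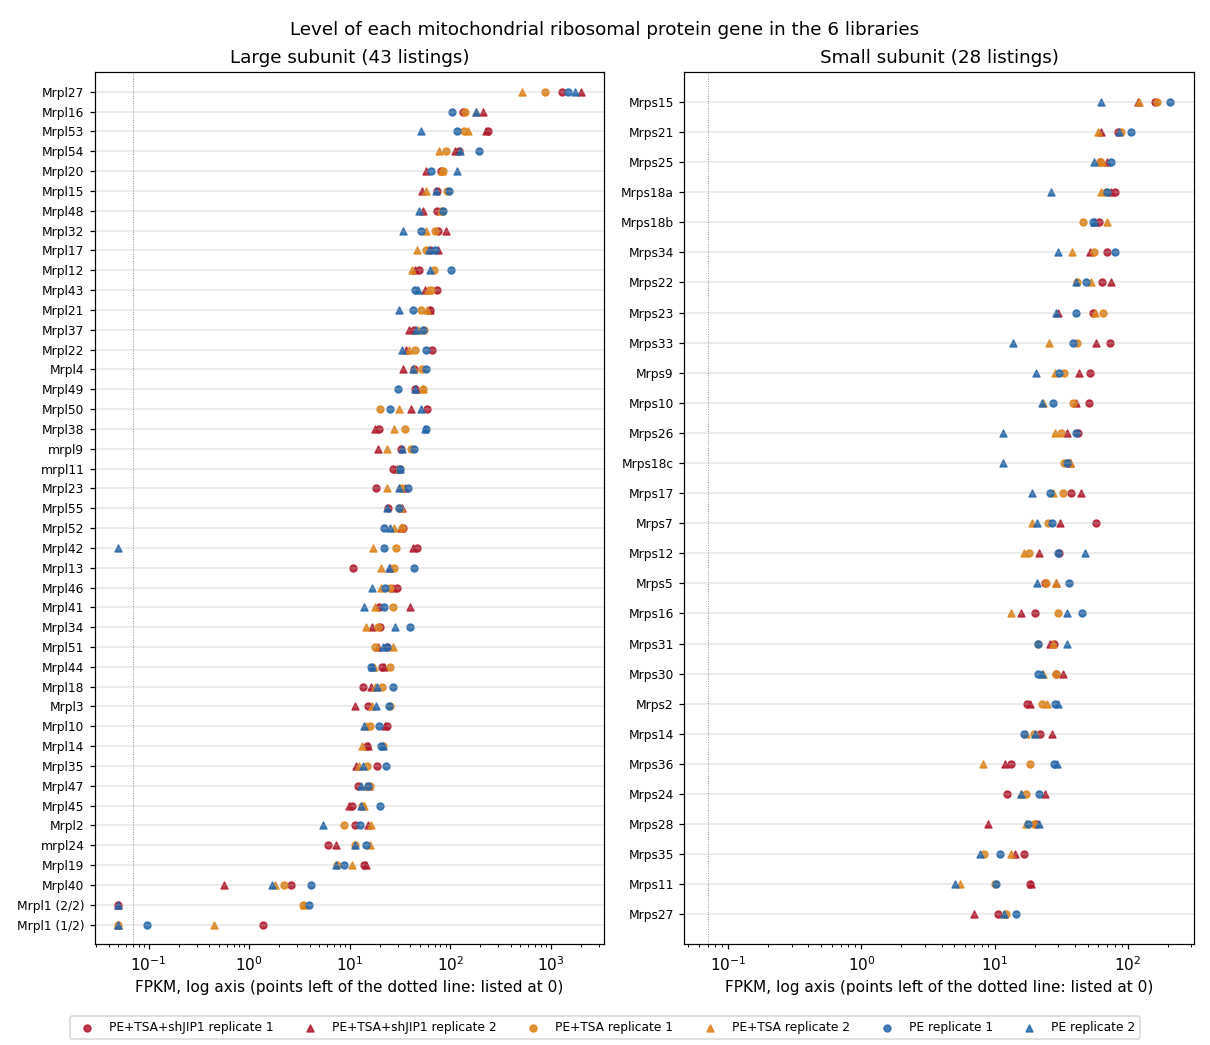
Level of each listing in FPKM (log horizontal axis) in the 6 libraries, with large-subunit genes at left and small-subunit genes at right, ordered by mean level. Most members lie between 10 and 100 FPKM, and Mrpl27 stands alone, at 515 FPKM or more in every library.

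Libraries differed in depth. From the size of single-read steps in low values, PE replicate 2 was 20.8 times shallower than PE replicate 1, an estimate resting on 29 of 214 features compared, while the other 4 libraries had 0.72 to 1.34 times the depth of PE replicate 1. PE replicate 2 lists 3667 features at 0, against 1407 to 1837 in the other libraries. The hairpin target Mapk8ip1 stood at 1.8 and 3.65 FPKM in PE+TSA+shJIP1 libraries, 14.6 and 17.9 FPKM in PE+TSA libraries, and 3.77 and 4.39 FPKM in PE libraries. Cardiomyocyte markers (9 of 10 listed, none at 0 throughout) summed to 5061 to 9686 FPKM in PE+TSA+shJIP1 libraries, 4845 to 10596 in PE+TSA libraries and 18422 to 22816 in PE libraries. Fibroblast markers (9 of 9 listed) summed to 575 to 693, 544 to 753 and 1051 to 1704 FPKM in the same groups, smooth muscle and pericyte markers (7 of 7) to 490 to 512, 251 to 394 and 1317 to 1637, endothelial markers (7 of 7) to 8.08 to 11.6, 17 to 38.3 and 13.2 to 15.8, and macrophage markers (5 of 7) to 9.53 to 10, 9.77 to 13.5 and 15.2 to 17.8. Single markers did not all follow these sums, or not to the same extent. All 9 tested cardiomyocyte markers were lower in PE+TSA than in PE, from -2.71 (Myh7) to -0.34 (Pln) on the log2 scale. None passed, and in 7 of the 9 the groups did not overlap. Tnnt2, Actc1 and Myl2 gave 7215, 7177 and 5278 of the 22816 FPKM in PE replicate 1. Of 8 tested fibroblast markers 7 were lower in PE+TSA than in PE, but Thy1 rose (log2 change 2.84, limma adjusted p = 0.0373). Col1a1 alone gave 634 and 1050 FPKM of the fibroblast sums in PE libraries. Of 6 tested smooth muscle and pericyte markers 5 were lower, with Acta2 at -2.43 (limma adjusted p = 0.0332), and Notch3 was higher (1.14, limma adjusted p = 0.192). The part of these markers in the results on ribosomal protein genes was not tested.

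The members also differed between replicates of a group. Of 70 tested members, 28 had their lowest value in PE replicate 2 and 22 had their highest in PE replicate 1. Within the PE group, replicate 1 exceeded replicate 2 in 52 of 70 members, with a median difference of 0.40 on the log2(FPKM + 1) scale, against 0.16 over all 10359 tested features. The same difference was 0.19 in the PE+TSA group (51 of 70 higher in replicate 1), against 0.00 over all features. In the PE+TSA+shJIP1 group it was 0.10 (42 of 70), against 0.006. Nuclear respiratory chain genes differed in the same direction, by medians of 0.11 in PE+TSA+shJIP1, 0.29 in PE+TSA and 0.47 in PE, and cytosolic ribosomal protein genes by 0.10, 0.075 and 0.32.

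**Figure D3:**
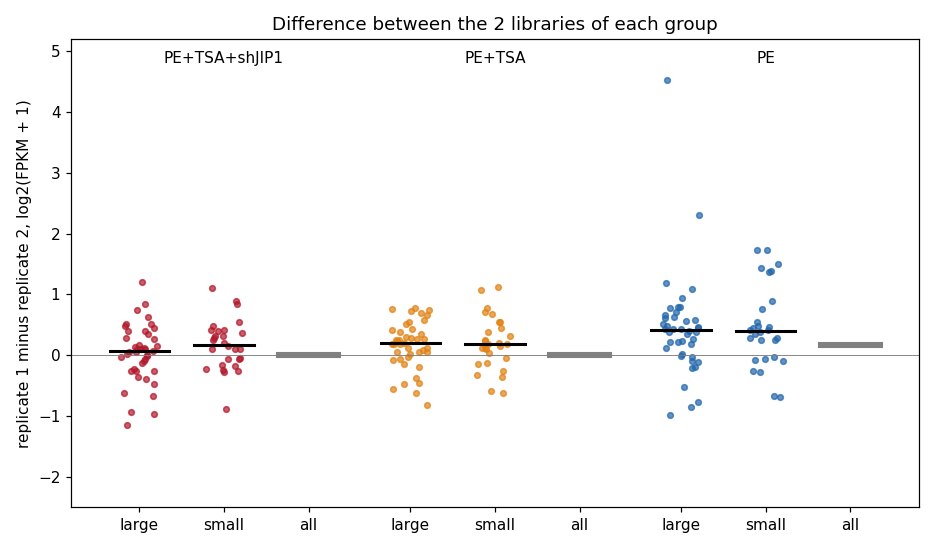
Replicate 1 minus replicate 2 of each group on the log2(FPKM + 1) scale; points are tested members by subunit, black bars their medians and grey bars the median of all tested features. Members of both subunits lie mostly above 0 in the PE group, with medians of 0.41 (large) and 0.40 (small).

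Across the 68 members with no value of 0, the highest library was a median of 2.06 times the lowest. The steadiest was mrpl11, a protein at the base of the stalk that recruits translation factors, with a span of 1.17-fold: 27.2 and 29.7 FPKM in PE+TSA+shJIP1 libraries, 32 and 30.9 FPKM in PE+TSA libraries, and 31.4 and 31.6 FPKM in PE libraries. Spans stayed under 2-fold in 28 members and passed 4-fold in 4. The median level of large-subunit members was 28.2 and 32.9 FPKM in PE+TSA+shJIP1 libraries, 31.5 and 27.2 in PE+TSA libraries and 31.3 and 29.7 in PE libraries, and these ranges overlapped. For small-subunit members the medians were 36.4 and 31.9 FPKM in PE+TSA+shJIP1 libraries, 30.9 and 26.4 in PE+TSA libraries and 30 and 22.8 in PE libraries. Both PE+TSA+shJIP1 libraries were above the other 4 here, by as little as 31.9 against 30.9 FPKM, and the lowest was the shallow PE replicate 2.

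The first comparison asked what TSA did in cells given PE, setting PE+TSA against PE. No member passed the test, 0 of 42 in the large subunit and 0 of 28 in the small subunit (limma, adjusted p under 0.05 over all 10359 tested features), where 0.811% of all tested features did. At an unadjusted p under 0.05 there were 8 of 70 members, against 18.7% of all features. The median change was -0.03 for large-subunit and 0.025 for small-subunit members on the log2(FPKM + 1) scale, against 0.097 for all features. Without PE replicate 2 they were -0.10 and -0.24, against 0.007 for all features. Without PE replicate 1 they were 0.16 and 0.19, against 0.175. With trimmed-mean scaling, which moved the median of all features to 0.007, the medians of both subunits were below 0 (-0.13 and -0.073). A two-sided exact permutation test on 2 against 2 libraries cannot give a p below 0.333, so none was used for single genes. In these bulk samples, fewer cells of a type and less RNA per cell cannot be told apart.

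Separation of the groups was counted next. PE+TSA and PE libraries did not overlap in 19 of 70 members (27.1%), against 50.6% of all tested features. In 10 members both PE+TSA libraries were higher (29.5% of all features) and in 9 both were lower (21.1% of all features). Among features averaging at least 10 FPKM the shares were 27.9% of 68 members and 51.6% of 5847 features. Respiratory chain genes stood at 32.5% and cytosolic ribosomal protein genes at 33.3%. Fitted changes under 1 on the log2 scale, in either direction, were seen in 65 of 70 members (92.9%), against 84.3% of all features. These shares were not tested against each other.

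In the large subunit, the smallest p-values with TSA belonged to Mrpl38, Mrpl34, Mrpl27, Mrpl54, Mrpl21 and Mrpl49, none of which passed. Mrpl27 was measured at 873 and 515 FPKM in PE+TSA libraries, against 1498 and 1725 FPKM in PE libraries. Its groups did not overlap, and its change of -1.26 ± 0.36 (SE, log2 scale) had an adjusted p of 0.159 in limma. Mrpl34, a homologue of a bacterial large-subunit protein, had 19.3 and 14.6 FPKM in PE+TSA libraries, against 40 and 28.5 FPKM in PE libraries (change -0.97 ± 0.27, limma adjusted p = 0.151). Mrpl54 had 91.1 and 76.9 FPKM in PE+TSA libraries, against 192 and 125 FPKM in PE libraries (-0.88 ± 0.26, limma adjusted p = 0.164). In these 3 genes every PE+TSA library was below every PE library. In the other direction, Mrpl21 had 51.6 and 58.8 FPKM with PE+TSA, against 42.3 and 30.9 FPKM with PE, and Mrpl49 had 54.2 and 53.2 FPKM, against 30.6 and 44.4 FPKM.

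In the small subunit the smallest p-values were those of Mrps12, Mrps36, Mrps23 and Mrps16. Mrps12, which lies at the decoding centre, had 18 and 16.7 FPKM in PE+TSA libraries, against 29.7 and 47.9 FPKM in PE libraries (-1.08 ± 0.30, limma adjusted p = 0.152). Mrps36 had 18.4 and 8.20 FPKM in PE+TSA libraries, against 28 and 29.4 FPKM in PE libraries (-1.15 ± 0.37, limma adjusted p = 0.181). Its protein, now named Kgd4, is placed by later work in the oxoglutarate dehydrogenase complex of the citric acid cycle. Mrps16, of bacterial type, had 30.2 and 13.3 FPKM with PE+TSA, against 45.5 and 34.7 FPKM with PE. Mrps23, specific to mitochondria, was higher in both PE+TSA libraries, at 65 and 57.2 FPKM, against 40.8 and 29 FPKM with PE (0.81 ± 0.33, limma adjusted p = 0.264).

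The second comparison asked what the JIP1 hairpin did in cells given PE and TSA, setting PE+TSA+shJIP1 against PE+TSA. It shares the PE+TSA libraries with the first. Again no member passed, 0 of 42 and 0 of 28 (limma), where 0.29% of all tested features did, and 7 of 70 had an unadjusted p under 0.05, against 14.9% of features. The median change was -0.07 in the large subunit and 0.20 in the small subunit, against -0.003 over all features. Without PE+TSA replicate 1 these medians were 0.094 and 0.34, and without PE+TSA replicate 2 they were -0.15 and 0.15. The median over all features was -0.004 in either fit. In the small subunit 21 of 28 members were higher and 7 lower in PE+TSA+shJIP1, none past the threshold, and in the large subunit 20 were higher and 22 lower. Of all 10359 tested features, 5144 were higher and 5204 lower. Members were measured in the same libraries, so these counts are not independent observations. The pooled SD of small-subunit library medians within the 2 groups compared was 0.14 on the same scale. Groups did not overlap in 37 of 70 members (52.9%), against 50% of all features.

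The highest fitted change in this comparison belonged to Mrpl27, at 1298 and 2001 FPKM in PE+TSA+shJIP1 libraries, against 873 and 515 FPKM in PE+TSA libraries (1.26 ± 0.36, limma adjusted p = 0.201). Its PE+TSA+shJIP1 libraries thus lay on either side of the PE libraries (1498 and 1725 FPKM). Mrpl38 had 19.5 and 18 FPKM, against 35.5 and 27.6 FPKM (-0.71 ± 0.21, limma adjusted p = 0.213). Lower values with the hairpin were also found for mrpl24, a protein of the tunnel exit, at 6.03 and 7.26 FPKM, against 11.2 and 15.9 FPKM in PE+TSA libraries (-0.91 ± 0.29, limma adjusted p = 0.225). In RefSeq mrpl24 overlaps Mettl25b. Mrpl10, a stalk protein, had 23.5 and 22.5 FPKM, against 16 and 14.6 FPKM, and Mrpl50, specific to mitochondria, had 58.6 and 40.7 FPKM, against 20 and 31.3 FPKM.

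In the small subunit, Mrps11, Mrps7, Mrps22 and Mrps9 had the smallest p-values, and each was higher in both PE+TSA+shJIP1 libraries. Mrps11, a platform protein that contacts the messenger RNA path, had 18.3 and 18.8 FPKM, against 10.1 and 5.47 FPKM in PE+TSA libraries (1.21 ± 0.40, limma adjusted p = 0.247). Mrps7, of the head of the subunit, had 57.9 and 30.9 FPKM, against 25.2 and 19.1 FPKM (0.92 ± 0.34, limma adjusted p = 0.294). Mrps22, specific to mitochondria, had 64.4 and 75.3 FPKM, against 41.9 and 52.9 FPKM (0.56 ± 0.22, limma adjusted p = 0.320). Mrps9, which has a bacterial counterpart, had 52.4 and 42.8 FPKM, against 33.3 and 28.3 FPKM. None of the 4 reached the threshold.

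The third comparison set PE+TSA+shJIP1 against PE, both treatments together, and shares libraries with each of the others. A single member passed, 1 of 70 (1.43%), where 8.27% of all tested features did in either direction, 4.11% higher and 4.16% lower. Unadjusted p-values under 0.05 were found in 17 of 70 members, against 30.7% of features. The median change was -0.05 in the large subunit and 0.29 in the small subunit, against 0.10 over all features. Without PE replicate 2 the medians were -0.14 and 0.019, against 0.026 over all features. Without PE+TSA+shJIP1 replicate 1 they were -0.15 and 0.23, against 0.1. Without PE replicate 2, 24 features in the whole table passed (0.231%), none of them a member. With trimmed-mean scaling these medians were -0.17 and 0.16, against -0.005 over all features. Groups did not overlap in 41 members (58.6%), against 60.6% of features, with 24 higher (33.9% of all features) and 17 lower (26.7% of all features). Fitted changes were under 1 on the log2 scale, in either direction, in 62 members (88.6%), against 76% of features.

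The member that passed was Mrpl38, a mitochondria-specific protein of the central protuberance. It was measured at 19.5 and 18 FPKM in PE+TSA+shJIP1 libraries, 35.5 and 27.6 FPKM in PE+TSA libraries, and 57.7 and 56.6 FPKM in PE libraries. The 3 groups did not overlap, and replicates lay close together in PE and in PE+TSA+shJIP1. Mrpl38 fell by 1.56 ± 0.21 (SE, log2 scale) in PE+TSA+shJIP1 against PE, with an adjusted p of 0.0174 in limma. The PE+TSA libraries differed from the PE libraries by -0.85 ± 0.21 (limma adjusted p = 0.130). The call was lost without PE replicate 2 (adjusted p = 0.0763), without PE+TSA+shJIP1 replicate 1 (0.0969) or replicate 2 (0.121), and when only the 4 libraries compared were fitted (0.052), while the change stayed between -1.68 and -1.5 in all 15 alternatives and the adjusted p between 0.0137 and 0.121.

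Of the other central protuberance members examined (Mrpl18, Mrpl40, Mrpl46 and Mrpl48), none passed. Ict1, a protein of the same region under another symbol, did pass and is described with the other-symbol proteins. Mrpl18 had 13.5 and 16.4 FPKM in PE+TSA+shJIP1 libraries, 20.8 and 17.9 FPKM in PE+TSA libraries and 27.3 and 18.9 FPKM in PE libraries (PE+TSA+shJIP1 over PE, -0.58 ± 0.26, limma adjusted p = 0.191). Mrpl46 differed in the opposite direction, with 29.3 and 27 FPKM in PE+TSA+shJIP1 libraries, 25 and 20.7 FPKM in PE+TSA libraries and 22.4 and 16.8 FPKM in PE libraries (0.52 ± 0.24, limma adjusted p = 0.195). Mrpl48 overlapped between PE+TSA+shJIP1 (74.3 and 53.9 FPKM) and PE (85.7 and 48.9 FPKM), as did Mrpl40. The difference between Mrpl38 and these proteins was not tested.

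Several large-subunit members came close to the threshold from the other side. Mrpl53 had 237 and 225 FPKM in PE+TSA+shJIP1 libraries, 137 and 151 FPKM in PE+TSA libraries, and 118 and 51.3 FPKM in PE libraries (PE+TSA+shJIP1 over PE, 1.55 ± 0.38, limma adjusted p = 0.0573). Mrpl32, whose maturation by a mitochondrial protease is known to precede ribosome assembly, had 75.7 and 90.4 FPKM in PE+TSA+shJIP1 libraries, 69.9 and 57 FPKM in PE+TSA libraries, and 50.7 and 34.1 FPKM in PE libraries (0.97 ± 0.26, limma adjusted p = 0.0668). In both genes the 3 groups were in the same order with no overlap, and the shallow PE replicate 2 held the lowest value. Without PE replicate 2 the changes were 0.96 for Mrpl53 and 0.70 for Mrpl32. Mrpl21 had 63.1 and 62.3 FPKM in PE+TSA+shJIP1 libraries, against 42.3 and 30.9 FPKM in PE libraries (0.78 ± 0.22, limma adjusted p = 0.0771). Mrpl34 was lower, with 20 and 16.5 FPKM, against 40 and 28.5 FPKM (-0.86 ± 0.27, limma adjusted p = 0.0929), as was mrpl24, with 6.03 and 7.26 FPKM, against 14.7 and 11.3 FPKM (-0.87 ± 0.29, limma adjusted p = 0.103).

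The most extreme fitted change belonged to Mrpl42, a mitochondria-specific protein, and rested on 1 value. It had 46.3 and 43.1 FPKM in PE+TSA+shJIP1 libraries, 28.9 and 16.9 FPKM in PE+TSA libraries, and 22 FPKM in PE replicate 1, and is listed at 0 in PE replicate 2. The fitted change of PE+TSA+shJIP1 over PE was 3.25 ± 1.31 (limma adjusted p = 0.156), and without PE replicate 2 it was 0.99. Without PE replicate 1, which leaves the shallow library as the only PE library, Mrpl32, Mrpl42 and Mrpl53 passed beside Mrpl38, as did Mrps18a, Mrps18c, Mrps26 and Mrps33 in the small subunit. These are 8 of 70 members (11.4%), where 9.48% of all features passed in that fit. For PE+TSA against PE, Mrpl42, Mrpl53 and Mrps18c passed in it, 3 of 70 (4.29%), where 2.41% of all features did.

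In the small subunit no member passed in this comparison, 0 of 28 (limma), with 9 at an unadjusted p under 0.05 and 18 higher against 10 lower. Over all features 30.7% had an unadjusted p under 0.05, and 5740 were higher against 4599 lower. The shallow PE replicate 2 held the lowest value of 15 of the 28 members, Mrps17, Mrps9, Mrps11 and Mrps33 among them. Without that library the median small-subunit change was 0.019, against 0.29 with all libraries. Mrps17, of bacterial type, had 37.6 and 44.8 FPKM in PE+TSA+shJIP1 libraries, 32.7 and 27.4 FPKM in PE+TSA libraries, and 26.2 and 19 FPKM in PE libraries (PE+TSA+shJIP1 over PE, 0.85 ± 0.24, limma adjusted p = 0.0769). Mrps9 had 52.4 and 42.8 FPKM, against 30.3 and 20.4 FPKM in PE libraries (0.90 ± 0.26, limma adjusted p = 0.0793). Mrps2 was lower, with 17.6 and 18.4 FPKM, against 28.4 and 30 FPKM in PE libraries (-0.67 ± 0.20, limma adjusted p = 0.0822). Mrps36 had 13.4 and 12 FPKM, against 28 and 29.4 FPKM (-1.12 ± 0.37, limma adjusted p = 0.104). Mrps11 had 18.3 and 18.8 FPKM, against 10.3 and 5.08 FPKM (1.24 ± 0.40, limma adjusted p = 0.101). Mrps33, specific to mitochondria, had 74 and 57.4 FPKM in PE+TSA+shJIP1 libraries, 41.8 and 25.6 FPKM in PE+TSA libraries, and 38.6 and 13.7 FPKM in PE libraries.

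**Figure D4:**
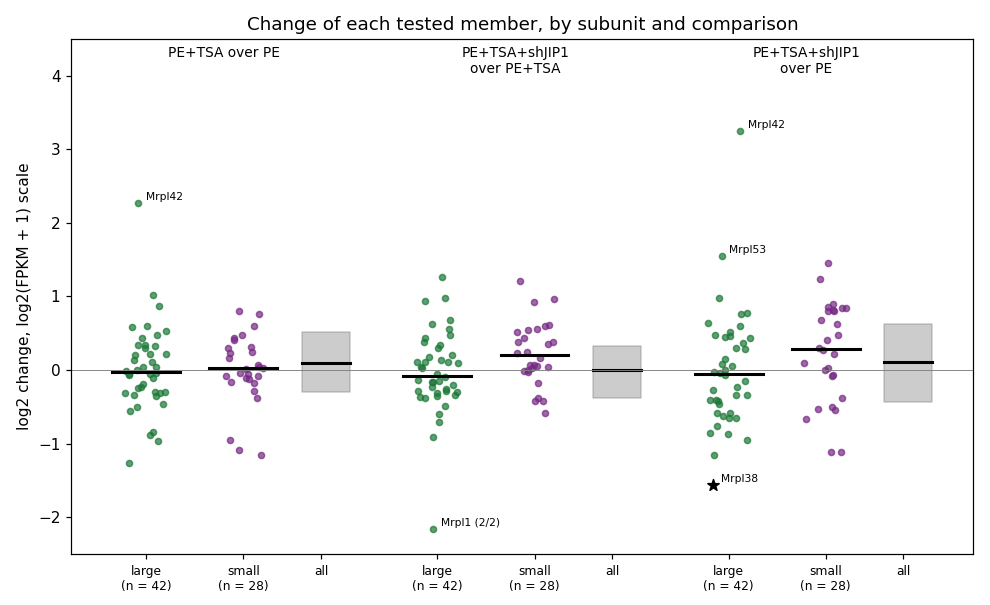
Change of each tested member on the log2(FPKM + 1) scale in the 3 comparisons, by subunit (n = 42 large and 28 small); black bars are medians and grey boxes span the middle quartiles of all tested features with their median. The star marks Mrpl38, at -1.56 the only member past the threshold.

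**Figure D5:**
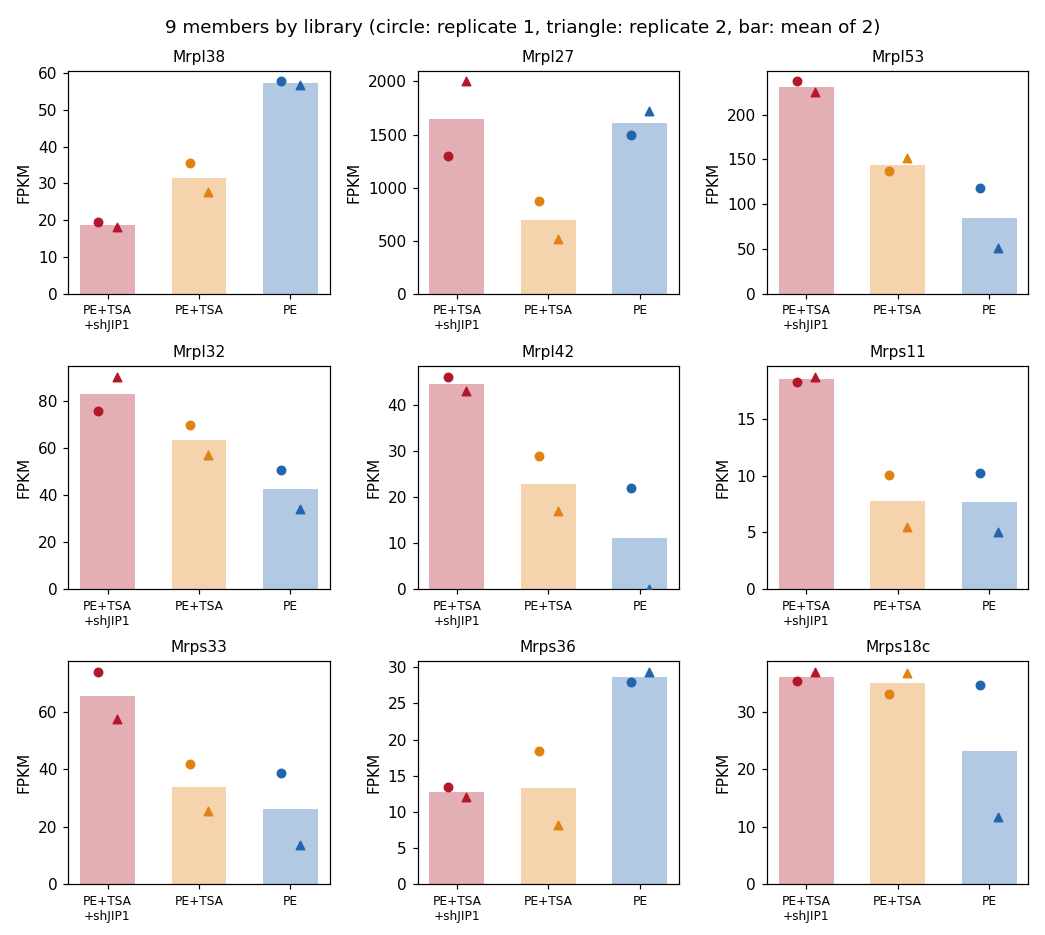
FPKM of 9 members in each library (points) with the group mean of 2 (bars), for PE+TSA+shJIP1, PE+TSA and PE from left to right. Mrpl38 is lowest in PE+TSA+shJIP1 and highest in PE, while Mrpl27 is lower in PE+TSA than in both other groups.

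Other members with known places in the ribosome also stayed below the threshold in all 3 comparisons. Among stalk proteins, Mrpl12, which binds translation factors, had 49 and 44.6 FPKM in PE+TSA+shJIP1 libraries, 69.6 and 41.6 FPKM in PE+TSA libraries, and 101 and 63.1 FPKM in PE libraries (PE+TSA+shJIP1 over PE, -0.76 ± 0.33, limma adjusted p = 0.181). At the tunnel exit, where new proteins leave the ribosome, Mrpl45, which tethers it to the inner membrane, had 10.6 and 9.75 FPKM in PE+TSA+shJIP1 libraries, 13.2 and 14 FPKM in PE+TSA libraries, and 20 and 13.1 FPKM in PE libraries. Its neighbours Mrpl22 and Mrpl23 overlapped between groups in every comparison. Of the proteins around the catalytic core, Mrpl3 had 15.3 and 11.3 FPKM in PE+TSA+shJIP1 libraries, 25 and 16.7 FPKM in PE+TSA libraries, and 24.9 and 18.2 FPKM in PE libraries. Mrpl2 and Mrpl4 overlapped between groups in every comparison, as did Mrpl41, which is specific to mitochondria.

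Mrpl44, which has the fold of an RNase III enzyme, had 20.8 and 22.2 FPKM in PE+TSA+shJIP1 libraries, 25.1 and 17.3 FPKM in PE+TSA libraries, and 16.3 and 16.6 FPKM in PE libraries. Among mitochondria-specific small-subunit proteins, Mrps27, a pentatricopeptide repeat protein, had 10.7 and 7.02 FPKM in PE+TSA+shJIP1 libraries, 12.1 and 11.7 FPKM in PE+TSA libraries, and 14.5 and 11.8 FPKM in PE libraries. Mrps34 overlapped in every comparison and ranged from 30 FPKM in PE replicate 2 to 79.7 FPKM in PE replicate 1. Of the abundant members, Mrpl16, Mrps15 and Mrps25 overlapped in every comparison. Mrps15, the most abundant small-subunit member, had 161 and 120 FPKM in PE+TSA+shJIP1 libraries, 166 and 122 FPKM in PE+TSA libraries, and 209 and 62.6 FPKM in PE libraries, so that the PE replicates held both its extremes. Mrpl20 and Mrps21 each had groups apart in a single comparison, Mrpl20 lower with the hairpin and Mrps21 lower in PE+TSA+shJIP1 than in PE.

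The 3 Mrps18 genes are paralogues whose proteins occupy different places: that of Mrps18a sits in the large subunit and those of Mrps18b and Mrps18c in the small one. Mrps18a had 80.7 and 75.1 FPKM in PE+TSA+shJIP1 libraries, 68.9 and 63.2 FPKM in PE+TSA libraries, and 70.1 and 26.4 FPKM in PE libraries. Mrps18b had 61 and 57 FPKM in PE+TSA+shJIP1 libraries, 46 and 69.7 FPKM in PE+TSA libraries, and 54.7 and 55.7 FPKM in PE libraries. Mrps18c had 35.3 and 37 FPKM in PE+TSA+shJIP1 libraries, 33.2 and 36.7 FPKM in PE+TSA libraries, and 34.7 and 11.6 FPKM in PE libraries. For Mrps18a and Mrps18c, PE replicate 2 alone stood apart, and none of the 3 passed in any comparison. Mrps30, whose protein also sits in the large subunit, had 29 and 32.9 FPKM in PE+TSA+shJIP1 libraries, 29.1 and 23.1 FPKM in PE+TSA libraries, and 21.2 and 22.7 FPKM in PE libraries.

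Mrps11 and Mrpl46 lie head to head in RefSeq, with 234 bases between their start sites, so the Mrpl46 window printed above shares 267 of its 300 bases with that of Mrps11. PE+TSA+shJIP1 over PE+TSA was 1.21 ± 0.40 for Mrps11 and 0.30 ± 0.24 for Mrpl46 (SE, log2 scale), neither past the threshold. The difference between them was not tested.

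Proteins of the mitochondrial ribosome with other symbols included 2 that passed, both in PE+TSA+shJIP1 against PE, out of 6 tested, where 8.27% of all features passed. Ict1, a peptidyl-tRNA hydrolase built into the large subunit, had 10.9 and 19.9 FPKM in PE+TSA+shJIP1 libraries, 30.8 and 31.9 FPKM in PE+TSA libraries, and 70.4 and 67.3 FPKM in PE libraries. Ict1 fell by 2.15 ± 0.29 (SE, log2 scale; limma adjusted p = 0.0176). Ptcd3, a pentatricopeptide repeat protein of the small subunit, had 47.2 and 60.1 FPKM in PE+TSA+shJIP1 libraries, 38.5 and 32.8 FPKM in PE+TSA libraries, and 23.2 and 20.4 FPKM in PE libraries, and rose by 1.25 ± 0.22 (limma adjusted p = 0.0281). Neither passed with TSA (limma adjusted p = 0.143 and 0.186) or with the hairpin (0.199 and 0.310). The Ict1 call was lost without PE replicate 2 (adjusted p = 0.0811), PE+TSA replicate 2 (0.0511), PE+TSA+shJIP1 replicate 1 (0.0831) or PE+TSA+shJIP1 replicate 2 (0.0571), and with only the 4 libraries compared (0.0559). That of Ptcd3 was lost without PE replicate 2 (0.103), PE+TSA replicate 1 (0.0622) or 2 (0.0653), PE+TSA+shJIP1 replicate 1 (0.102) or 2 (0.171), with only the 4 libraries compared (0.0684), and with no filter on low values (0.051). Chchd1, another small-subunit protein, was the most abundant of the 6, at 883 and 712 FPKM in PE+TSA+shJIP1 libraries, 1248 and 931 FPKM in PE+TSA libraries, and 1006 and 1224 FPKM in PE libraries.

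Genes that serve the ribosome did not pass in any comparison (limma). Over all features 0.811% passed with TSA, 0.29% with the hairpin and 8.27% with both. The lists tested held 10 translation factor genes and 16 mitochondrial aminoacyl-tRNA synthetase genes. They also held 21 listings for assembly and rRNA modification, 13 for mitochondrial DNA expression and 9 for nuclear regulators. Their unadjusted p-values were under 0.05 in 0, 0, 1, 0 and 2 cases with TSA, in 1, 2, 3, 1 and 1 with the hairpin, and in 2, 1, 5, 3 and 2 with both. Over all features the shares were 18.7%, 14.9% and 30.7%, and every list stood below them except the regulators with TSA (2 of 9). The smallest p among assembly factors with both treatments was that of Gtpbp10, a GTPase of large-subunit assembly, at 13.3 and 7.10 FPKM in PE+TSA+shJIP1 libraries, 5.68 and 4.72 FPKM in PE+TSA libraries, and 3.60 and 1.21 FPKM in PE libraries (1.76 ± 0.47, limma adjusted p = 0.0671). Without PE replicate 2 the Gtpbp10 change was 1.23 (adjusted p = 0.188), and without PE replicate 1 it was 2.29 (0.0464). With both treatments, groups did not overlap in 11 of 21 assembly listings (52.4%), against 60.6% of all features. All 11 were higher, which is 52.4% of the 21 listings, against 33.9% of all features. Of the 6278 features whose groups did not overlap, 3516 were higher and 2762 lower. The 21 listings carry 18 symbols, and both Malsu1 listings are among the 11.

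Of the regulators, Ppargc1a, a coactivator of mitochondrial biogenesis, had 27.4 and 12.3 FPKM in PE+TSA+shJIP1 libraries, 47.3 and 38.4 FPKM in PE+TSA libraries, and 33.4 and 25.3 FPKM in PE libraries (PE+TSA+shJIP1 over PE+TSA, -1.17 ± 0.39, limma adjusted p = 0.247). Myc had 64.6 and 60.5 FPKM in PE+TSA+shJIP1 libraries, 17.3 and 46.3 FPKM in PE+TSA libraries, and 25.7 and 16.4 FPKM in PE libraries (PE+TSA+shJIP1 over PE, 1.56 ± 0.46, limma adjusted p = 0.0837). Yy1, which encodes the factor of the YY1 motif, had 60.8 and 56.2 FPKM in PE+TSA+shJIP1 libraries, 51 and 46.6 FPKM in PE+TSA libraries, and 43.2 and 29.8 FPKM in PE libraries. Tfam, which packages mitochondrial DNA and starts its transcription, had 129 and 119 FPKM in PE+TSA+shJIP1 libraries, 94.6 and 94.3 FPKM in PE+TSA libraries, and 96.1 and 59.9 FPKM in PE libraries (0.70 ± 0.26 for PE+TSA+shJIP1 over PE, limma adjusted p = 0.131). Without PE replicate 2 the Tfam change was 0.37 (adjusted p = 0.330), and without PE replicate 1 it was 1.04 (0.0461).

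Beside the members, cytosolic ribosomal protein genes (57 tested) had median changes of 0.16 with TSA, 0.079 with the hairpin and 0.32 with both, with 0, 0 and 3 called. Nuclear respiratory chain genes (77 tested) had -0.13, 0.12 and -0.046, with 1, 0 and 2 called. All tested features had 0.097, -0.003 and 0.103, with 0.811%, 0.29% and 8.27% called. With both treatments the shares called were 5.26% of cytosolic ribosomal protein genes and 2.6% of respiratory chain genes. With TSA, 1.3% of respiratory chain genes were called. No difference between these sets and the mitochondrial ribosomal protein genes was tested.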

How the data were processed

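RNA was isolated with a commercial kit and sequenced from Illumina libraries, per the labels' protocols. What the authors deposited is a single table of FPKM, 1 column per library. Its header names no unit; per the submitters' processing notes Cufflinks was used, a program that outputs FPKM, with the build rn6 and no version. Aligner, annotation and strand: not given in the sources used here. Sample titles set the groups. Features averaging 1 FPKM or more (10359) were analysed as log2(FPKM + 1) in limma 3.58.1 (R 4.3.3; 1 mean per group, trended prior, 3 residual and 3.27 prior degrees of freedom), with p-values adjusted by Benjamini-Hochberg across all of them and a threshold of 0.05. Absolute depth is unknown, so no counting intervals are given. Scripts were tested on simulated data. Members named had passed, had the 6 (large) or 4 (small) smallest p-values of a comparison, the highest means or a value of 0, shared a symbol, were not tested, or belonged to a set of known roles; in other lists, members that passed or had the 2 smallest p-values. Named or added after values were seen were Mrps33, Mrps26, Chchd1, the promoters printed, the YY1 positions and the neighbouring genes. Members and lists were chosen with earlier results of these data known. Alternatives covered the pseudocount, filters, scaling, variance prior, replicate block, libraries and listings used, and subunit assignment.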

Additional observations from a re-analysis of the deposited data

How the results depend on the processing

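All 3 comparisons and the large- and small-subunit counts and medians were recomputed under each alternative. In PE+TSA+shJIP1 against PE, large-subunit calls numbered 1, and 3 with quantile normalization, 2 without symbols on several rows and 0 with only the 4 libraries compared. Over all features 8.27%, 9.56%, 10.4% and 0.0386% passed in these fits, in the same order. The quantile calls added Mrpl32 and Mrpl53. Leaving out 1 library gave, in that comparison, a large-subunit median of -0.15 to -0.034 and a small-subunit median of 0.019 to 0.44. For TSA the large-subunit median was -0.10 to 0.16 and the small-subunit median -0.24 to 0.19. For the hairpin the large-subunit median was -0.15 to 0.094 and the small-subunit median 0.15 to 0.34. Whether equal replicate numbers mark paired libraries was not settled (correlations of deviations 0.0735, 0.0396 and 0.122). With a replicate block, small-subunit calls against PE numbered 2 (Mrps33 and Mrps9), against 0 without it. With the block 10.3% of all features passed, against 8.27% without it. Over the whole table, calls ranged from 3 to 250 for TSA (84 in the reported fit), 0 to 40 for the hairpin (30) and 4 to 1063 for both (857). Of single genes named, 3 lost a call in 16 fits (Mrpl38, Ict1 and Ptcd3), 13 changes passed only in alternatives (18 fits), and no called gene changed sign. Where leaving out a library left 1 in a group, that one was assumed to vary like the others. The cause of these shifts was not tested. Each group has 2 libraries, and PE replicate 2 is estimated to be 20.8 times shallower than PE replicate 1; what this depth did to the calls was not tested. An added alternative, chosen after seeing the data, that counted only capital-M symbols left large-subunit calls at 1.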
